A study of Rattus norvegicus with 4 samples.

Results

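Immunoglobulin chain transcripts in the small intestine of rats are described here by isotype and chain type: the heavy chains that define IgG, IgD, IgE and IgM, the kappa and lambda light chains, their variable regions, and the joining (J) chain. Members were chosen from the array's own annotation. The wording of 105 probe descriptions named an immunoglobulin chain or region, and 2 of these were left out, the Fc receptor Fcgrt and a protein with an immunoglobulin-like motif. Of the 103 remaining probes, 72 (from 70 distinct source sequences) carried the scanner's flag for a signal well above background on 2 or more of 4 arrays and are the members, out of 28417 probes that met the same detection limit and 41012 gene probes on the array. The flags that chose the members were detection flags, so that detection itself is given as a description.

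The samples came from male Wistar rats that entered a feeding test at 3 weeks of age and stayed in it for 12 weeks. The 2 control rats drank tap water only. The 2 compost rats drank tap water to which 1% by volume of a compost extract, a heated dilution of an aerobically fermented compost, had been added. All 4 samples were the small intestine without its Peyer's patches, the lymphoid follicles of the gut wall, and each rat gave 1 sample hybridised to 1 single-colour Agilent array. The design asks how the drinking water additive relates to transcript levels in this tissue. With 2 rats a group, the number of arrays limits the precision. The p-values set the difference between groups against the spread between rats of a group, which limma moderates with that of all kept probes.

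An antibody is built from a pair of identical heavy chains and a pair of identical light chains. The variable regions, which bind antigen, are joined in each B cell from separate gene segments, while the constant region of the heavy chain sets the isotype. In the gut wall, plasma cells make mostly IgA, which is linked into dimers by the J chain and carried across the epithelium by the polymeric immunoglobulin receptor; IgG is the main isotype of serum, and IgD sits mostly on the surface of B cells that have not yet met antigen.

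The gene of the J chain was the only member with an upstream region in the RefSeq sequence tables used here. Its 250 bases before the start of transcription are shown because both J chain probes are reported below and the gene is one that plasma cells transcribe. In the rat build GRCr8 they lie at chr14:19822726-19822975 on the + strand. Capitals mark the matches to the E-box, the letters CANNTG, a motif bound by basic helix-loop-helix factors.
Jchain: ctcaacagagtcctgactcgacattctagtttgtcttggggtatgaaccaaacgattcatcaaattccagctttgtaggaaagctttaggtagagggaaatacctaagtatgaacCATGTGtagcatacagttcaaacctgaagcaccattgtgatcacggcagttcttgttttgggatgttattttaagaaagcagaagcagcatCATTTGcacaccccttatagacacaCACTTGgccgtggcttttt
The E-box was found 3 times, starting 135, 44 and 19 bases before the start, and 65.5% of the 33469 rat upstream windows of this length held at least 1. The octamer ATGCAAAT, a motif known from immunoglobulin promoters, had no match on either strand here and was in 1.56% of the windows. No match was found either for the letters GAGGAA (23.3% of windows) or TGANTCA (6.34%), each searched on both strands. The 3 marked matches did not overlap one another. A match of letters is a description of the window and does not show that a factor binds there.

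Signals are given as log2 intensity relative to the 75th percentile of each array, so that 0 is a probe at that percentile. A difference is the compost mean minus the control mean on this log2 scale, with its standard error (SE) from the limma fit over all 28417 probes. Levels of different probes are not compared with each other, because a probe's brightness depends on its sequence. The 4 arrays were alike in quality: the scanner flagged 66.5% to 71.0% of gene spots as detected and 2 to 5 as saturated, and correlations between arrays over all kept probes were 0.981 to 0.988. The controls were arrays 1 and 2 of the slide and the compost samples arrays 3 and 4, so position on the slide and group cannot be told apart.

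Most immunoglobulin members were higher in the compost rats, by a median of 1.24 log2 units or 2.37-fold, against a median of -0.02 over all probes. Both compost arrays lay above both control arrays for 35 of the 72 members (48.6%), where the same held for 12.3% of all probes, and below them for 2 (2.78%, against 15.6%). The remaining 35 members overlapped between the groups. The mean difference was above 0 for 62 members (86.1%, against 45.8%) and was at least 1 log2 unit higher for 44 (61.1%, against 1.12%) and at least 1 lower for 1 (1.39%, against 0.985%). In 17 members (23.6%, against 0.282% of all probes) the nearest arrays of the 2 groups were at least 1 log2 unit apart with the compost arrays higher, and in no member (against 0.155%) with the compost arrays lower. The 17 include the 6 members detected in the compost rats alone, which had to be higher there. Since 23 members were detected on only 2 or 3 arrays, the 49 detected on all 4 were also taken alone. They gave 25 above (51.0%, against 12.4% of the 26110 probes detected on all 4 arrays), 1 below (2.04%, against 15.1%) and a median of 1.21. In 10 of these 49 the nearest arrays were at least 1 log2 unit apart with the compost arrays higher, against 0.282% of all 28417 probes.

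No probe of the array passed the test: limma with Benjamini-Hochberg adjustment called 0 of 28417 probes at an adjusted p under 0.05 (0%). At an unadjusted p under 0.05 it gave 913 probes, of which 400 were higher (1.41%) and 513 lower (1.81%). Of the members, 27 were higher at that unadjusted limit (37.5%) and 0 were lower. The 27 include the 6 members detected in the compost rats alone, which had to be higher. Of the 49 members detected on all 4 arrays, 19 were under that limit. In a fit of the 26110 probes detected on all 4 arrays, 786 were under it in either direction. The lowest adjusted p of any member was 0.107. With normexp background correction in place of Agilent's processed signal, 1 probe of the array was called, and it was a member, a light chain described below. In bulk tissue, more cells of a kind and more RNA per cell cannot be told apart.

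Among the heavy chains, the constant region of IgG, the isotype of most serum antibody, was higher in both compost rats, with no overlap, for the 2 subclasses detected on all 4 arrays, IgG2b and IgG1. The IgG2b constant region (ENSRNOT00000045874) had -2.61 and -3.90 in control rats 1 and 2 and -0.54 and 1.36 in compost rats 1 and 2. That is a difference of 3.66 ± 0.77 (SE, n = 2 against 2; limma with Benjamini-Hochberg adjustment, adjusted p = 1). The compost rats were above both controls, and compost rat 2 was the higher.

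The IgG1 constant region (RGD1359539) was at -4.80 and -3.81 in the controls and at -0.74 and -1.40 in the compost rats, a difference of 3.23 ± 0.43 (limma, adjusted p = 0.661). Here compost rat 1 was the higher, and the gap between the groups was wider than the gap within either. The IgG2a constant region (DQ402472) was below the detection flag in both controls, at -6.08 and -5.90, and stood at -2.73 and -2.27 in the compost rats. It is a member through the compost arrays alone, so it had to be higher there, and its fitted difference of 3.49 ± 0.24 (limma, adjusted p = 0.126) rests on control values below detection. For a probe that only 1 group measured, the fold is a lower bound, taken against the higher of the probe's own control signal and the dimmest signal well above background on each array. By that rule IgG2a was at least 8.53-fold higher in the compost rats. These sizes depend on how background is treated: with normexp the differences were 2.86 for IgG2b, 2.05 for IgG1 and 1.28 for IgG2a, so the bound holds for Agilent's processed signal only.

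Of the other 3 IgG members, an IgG heavy chain clone (LOC362795) was at -4.34 and -4.26 in the controls, and at -3.56 and -0.87 in the compost rats, a difference of 2.08 ± 0.90 that owed more to compost rat 2. A heavy chain similar to gamma-2a (LOC366758) was even within groups, at -2.37 and -2.66 in the controls and -1.16 and -0.98 in the compost rats, and differed by 1.44 ± 0.20 (limma, adjusted p = 0.751). The gamma chain variable region of hybridoma 57R-2, a single antibody's rearranged sequence, did not separate the groups: it was at -5.16 and -4.06 in the controls and at -2.72 and -6.38 in the compost rats. Over the 6 IgG members the median difference was 2.66 (1.22 with normexp), and 4 of the 6 were highest in compost rat 2, as were 8483 of all 28417 probes. Another 5 probes named as IgG were detected on fewer than 2 arrays, and over all 11 the median was 0.06.

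The IgD constant region (ENSRNOT00000056837) was detected in the compost rats alone and is a member through them. It was at background in both controls, with -7.39 and -7.73, and at -2.29 and -4.01 in the compost rats. The fitted difference of 4.41 ± 0.60 (limma, adjusted p = 0.698) rests on control values near the floor of the array; as a bound, the compost rats were at least 5.44-fold higher, and with normexp the difference was 1.17. The member named for IgE, the isotype of allergic responses, was the variable region of an anti-SPE7 antibody. A variable region does not set the isotype, so its value is not a level of IgE. This probe was at -1.67 and -0.61 in the controls and 0.45 and -0.25 in the compost rats, 1.24 ± 0.45 higher without overlap. The IgE constant region probe was not well above background on any array. Its values were -6.52 and -6.07 in the controls and -8.03 and -6.78 in the compost rats. The member named for an IgM heavy chain carries the name of a zebrafish sequence and differed by 0.16 ± 0.21. A probe named for the rat mu chain of IgM was not well above background on any array. Differences between isotypes were not tested.

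No member names the alpha chain of IgA in its description, because 2 probes for that gene are annotated only as Igha_mapped protein. They fall outside the rule and are given here as values. The first (ENSRNOT00000006888) was at 6.48 and 7.03 in the controls and 8.37 and 7.43 in the compost rats, 1.14 ± 0.40 higher (limma, adjusted p = 1) with no overlap. The second (ENSRNOT00000056843) was at 1.81 and 1.03 in the controls and 1.66 and 3.70 in the compost rats, 1.26 ± 0.74, and its groups overlapped. The first was highest in compost rat 1 and the second in compost rat 2. Other detected antibody sequences whose descriptions lack the words of the rule were the kappa variable region of a monoclonal antibody (X55180, 1.87 ± 0.56, no overlap), the anti-NGF30 light chain (0.39 ± 0.46, overlap) and the kappa chain of an antibody to the acetylcholine receptor (0.87 ± 0.49, overlap). A probe similar to Igh-6 protein (LOC366768), detected on 1 array, was lower in both compost rats. It was at -5.46 and -5.50 in the controls and -5.88 and -6.04 in the compost rats. The anti-NGF30 heavy chain was not well above background on any array.

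Both J chain probes gave nearly the same pattern. The probe for Igj, an older symbol of Jchain, was at 1.21 and 1.84 in the controls and 3.25 and 2.29 in the compost rats, a difference of 1.25 ± 0.41 (limma, adjusted p = 1). The probe for the J chain homolog S82585 was at 0.91 and 1.43 and at 2.88 and 1.89, a difference of 1.21 ± 0.40. In both, compost rat 1 was the highest and control rat 1 the lowest, and the groups did not overlap.

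Kappa is the light chain type that most rat antibodies carry, and its members varied in how far they separated the groups. A kappa chain with variable, joining and constant parts from immunocytoma IR2 (M14434) was at 6.82 and 6.93 in the controls and 8.42 and 7.79 in the compost rats, 1.23 ± 0.27 higher (limma, adjusted p = 1). A kappa constant region probe made from Rattus leucopus (M12822) was at 5.09 and 5.08 and at 7.30 and 6.18, 1.65 ± 0.40 higher. A second one, made from Rattus colletti (M12981), was at 5.01 and 6.53 and at 5.63 and 6.13, and its difference was 0.11 ± 0.55. The 2 constant region probes therefore disagree: the first separated the groups, and in the second control rat 2 was the highest of the 4. Both sequences are from other Rattus species, and how well each pairs with the transcript of the Wistar rat was not tested.

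Over the 21 kappa members the median difference was 1.13 (0.47 without compost rat 1). Of these, 10 were above (47.6%, against 12.3% of all probes), 1 was below (4.76%, against 15.6%) and the others overlapped. The variable region of an IgM kappa chain from the LEW hybridoma HAR-1 (S81289) was at -0.81 and 2.0 in the controls and 3.86 and 3.40 in the compost rats, 3.04 ± 0.95 higher. The germline kappa variable segment ENSRNOT00000043097 was at -0.86 and 1.44 and at 2.65 and 2.79, 2.43 ± 0.77 higher. In these, control rat 1 was the lowest by more than 2 log2 units and the compost rats were close to each other. A kappa chain of hybridoma YTH906 (M87784) was not well above background in the controls (-5.04 and -6.43) and was at -0.27 and -3.30 in the compost rats, at least 12.2-fold higher as a bound on the processed signal, and 1.93 log2 units or 3.82-fold higher with normexp.

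Other kappa variable regions did not follow this. The segment ENSRNOT00000029570 was at 0.32 and 0.09 in the controls and -0.13 and 0.16 in the compost rats, a difference of -0.19 ± 0.21. The kappa chain of hybridoma 56R-3 (L07408) was lower in both compost rats, by a mean of -0.20 ± 0.20, which is no larger than its SE. That of hybridoma 57R-1 (L07410) varied most between rats of 1 group, at -0.82 and -7.43 in the controls and 0.11 and -4.54 in the compost rats, so that its difference of 1.91 ± 2.66 says little.

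One kappa probe, for the IR162 immunocytoma (M15402), was printed in 10 spots and gives the spread between spots of 1 array. Its log2 values were 0.39 and 1.84 in the controls and 1.72 and 2.45 in the compost rats. The SD between its 10 spots was 0.05, 0.16, 0.02 and 0.04 on the 4 arrays, below the gap between the rats of either group. Its groups overlapped through control rat 2 and compost rat 1, whose means lay closer than the spot SD of control rat 2. A second probe for the same sequence differed by 0.05 ± 0.66.

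Lambda, the minor light chain type of rodents, had 3 members. The lambda-1 constant region (ENSRNOT00000057971) was measured by 2 probes: one was at -1.86 and -0.10 in the controls and 0.06 and -0.53 in the compost rats, and the other at -1.74 and -0.18 and at -0.12 and -0.57. The 2 probes agree array by array, and in both only control rat 1 stood apart, which gave differences of 0.74 ± 0.63 and 0.61 ± 0.56 with overlapping groups. A rearranged lambda variable pseudogene sequence, clone RLV109 (M77364), was at -2.59 and -3.97 and at 0.28 and -1.06, 2.89 ± 0.66 higher.

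Of the 10 light chain members with no type in their description, 5 were above in both compost rats (50.0%, against 12.3% of all probes) and none was below. Their median was 0.82 (1.35 without control rat 2 and 0.50 with normexp). A light chain similar to that of an antibody binding nerve growth factor (LOC500183) had close values within each group. It was at -2.22 and -1.90 in the controls and 1.21 and 1.26 in the compost rats, a difference of 3.30 ± 0.20 (limma with Benjamini-Hochberg adjustment, adjusted p = 0.107). With normexp it differed by 2.94 with an adjusted p of 0.0366.

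A light chain similar to that of an anti-idiotype IgM (XM_213585) was at -3.73 and -4.96 in the controls and -0.81 and -0.14 in the compost rats, 3.86 ± 0.49 higher (limma, adjusted p = 0.661). A light chain variable region (AJ250889) was at -5.04 and -6.03 and at 0.54 and -2.94, 4.34 ± 1.20 higher. Their control values are low on the array's scale, and with normexp the last of them differed by 2.45. A pair of rearranged or predicted variable regions overlapped between groups: L17078 differed by 0.48 ± 0.54 and LOC297260 by 0.42 ± 0.71.

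Heavy chain members with no isotype in their description scattered widely. Of the 22, 9 are named as variable regions and 13 name no region; antibody genes can share sequence, so the probes may read related transcripts. Both compost arrays were above for 6 (27.3%, against 12.3% of all probes) and below for 1 (4.55%, against 15.6%), and the median difference was 1.41. It ran from 0.12 without compost rat 1 and 0.62 without control rat 1 to 2.14 without control rat 2, and was 0.39 with normexp and 0.29 over all 35 such probes without the detection limit. LOC366751 (XM_345738) was at 0.58 and 2.16 in the controls and 3.44 and 2.39 in the compost rats, 1.55 ± 0.65 higher. LOC299474 (XM_234754) was at -7.43 and -7.79 and at -5.48 and -3.13, at least 2.45-fold higher as a bound on the processed signal, and 0.68 log2 units higher with normexp. LOC366755 (XM_345742) went the other way, at -4.93 and -1.48 in the controls and -5.36 and -5.69 in the compost rats, a difference of -2.32 ± 1.15, and control rat 2 was by far the highest of the 4.

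In several of these a single rat stood apart. LOC299551, similar to a variable region precursor (XM_234830), was at -3.11 and -1.53 in the controls and 1.94 and -2.54 in the compost rats, 2.02 ± 1.57. The heavy chain XM_345756 was at -7.10 and -3.08 and at -2.14 and -3.46, 2.29 ± 1.40, with control rat 1 far below the other 3. Among 5 variable regions whose chain is not named, all from ERF clones, 4 were above without overlap (80.0%, against 12.3% of all probes). Their median over the 5 was 2.15, or 1.27 without compost rat 1 and 3.06 without compost rat 2. Clone ERF3.23 (Z93370) was at -7.16 and -7.82 and at -4.42 and -4.47, 3.05 ± 0.28 higher (limma, adjusted p = 0.277) and at least 2.22-fold higher as a bound. With normexp, which compresses signals near background, ERF3.23 differed by 0.48.

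The 7 members whose names come from similarity to another species, such as a human heavy chain, a skate light chain or the zebrafish IgM, differed little. Their median difference was 0.16, with a range of -0.11 to 1.50, against a median of 1.34 for the members with rat names. Of the 7, 1 was above (14.3%, near the 12.3% of all probes), against 34 of the 65 with rat names (52.3%). The 7 also had a narrower range over the 4 arrays, with a median of 0.47 against 3.05 log2 units. Whether they detect immunoglobulin transcripts was not tested.

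Rats of the same group also differed in these transcripts, which is described here without a test. The median gap between the control rats was 1.08 log2 units over the members and 0.18 over all probes, and between the compost rats 0.79 and 0.31. For the 49 members detected on all 4 arrays the control and compost gaps were 0.63 and 0.68. They were wider, at 1.48 and 1.90, for the 23 detected on 2 or 3 arrays. Control rat 1 was below control rat 2 for 47 of 72 members (65.3%, against 55.2% of all probes), with a median difference of -0.38. Compost rat 1 was above compost rat 2 for 48 (66.7%, against 45.1%), with a median of 0.67. The lowest of the 4 arrays was control rat 1 for 42 members (58.3%, against 24.0% of all probes). The highest was compost rat 1 for 42 (58.3%, against 27.2%), compost rat 2 for 15 and a control for 15. Of all 28417 probes, 8483 were highest in compost rat 2 and 12202 in a control. Leaving out compost rat 1 gave a median difference of 0.80, and leaving out compost rat 2 gave 1.72.

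The detection limit removed 31 of the 103 named probes. Of these, 23 were not well above background on any array and 8 on 1 array only, a compost array for 6 and a control array for 2. The 12 members just inside the limit, detected on 2 arrays, had means over the 4 arrays from -6.15 to -3.76, and the 8 just outside it from -6.61 to -5.66. Of the 12, 6 were detected in both compost rats and neither control, 6 in 1 rat of each group and 0 in both controls only. Of 11 members detected on 3 arrays, 8 lacked a control and 3 a compost rat. A member detected in the compost rats alone had to be higher there, so these counts describe the signal near background.

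Genes that mark B cells and plasma cells were read beside the immunoglobulins, by list. For comparison with each list, 45.8% of all probes had a difference above 0 and 12.3% were above without overlap. Of 9 B cell genes kept, 9 had a difference above 0, 7 were above in both compost rats, and the median was 1.45. Only 6 of the 9 were detected on all 4 arrays, and genes kept through the compost rats alone had to be higher there. Cd22, an inhibitory co-receptor, was at -5.06 and -5.81 in the controls and -4.07 and -4.06 in the compost rats, 1.36 ± 0.30. It was detected in only 1 of the controls, and with normexp it differed by 0.36. Cd79b, part of the B cell receptor's signalling pair, was at -3.50 and -2.84 and at -1.62 and 0.13, 2.43 ± 0.64. Cd72 differed by 1.45 ± 0.43 and the kinase Blk by 0.79 ± 0.25, each above without overlap (limma, adjusted p = 1 for these genes).

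All 9 B cell genes were highest in compost rat 2, where 8483 of all 28417 probes peaked. Of the 72 immunoglobulin members, 15 peaked there, 4 of them among the 6 IgG members, and 42 peaked in compost rat 1. The B cell list had its highest mean in compost rat 2, at -1.70 against -3.35 in compost rat 1 and -4.20 and -4.17 in the controls. Cd180, also a B cell marker, was not well above background on enough arrays to be kept. With normexp the median of the B cell list was 0.51. The part that more B cells play in the immunoglobulin differences was not tested.

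Plasma cells are the antibody-secreting end stage of B cells. Of their 15 genes kept, 14 had a difference above 0, 11 were above in both compost rats (12.3% of all probes were) and the median was 0.40. The list holds Jchain, whose probe is also a member, so it is not separate from the immunoglobulin members. Mzb1, a chaperone of antibody assembly, was at -2.14 and -1.41 in the controls and 0.51 and -0.69 in the compost rats, 1.68 ± 0.49 higher. Prdm1, the transcription factor of plasma cell fate, differed by 0.68 ± 0.21 and the survival receptor Tnfrsf17 by 0.95 ± 0.36. The list mean was highest in compost rat 1, at 2.07, with 1.76 in compost rat 2 and 1.32 and 1.42 in the controls. In compost rat 1, 9 of the 15 genes peaked, against 27.2% of all probes. Some genes of this list are also expressed by other cells. None of the 15 was below, and 4 overlapped: Hspa5 (0.08), Slamf7 (0.05), Sdc1 (-0.01) and Ell2 (0.01). Fkbp11 (0.50), Sec11c (0.40), Pdia4 (0.37), Hsp90b1 (0.34) and Edem1 (0.22) were above in both compost rats.

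Genes of antibody gene rearrangement and class switching had differences near 0. Of the 12 kept, most of them general DNA repair genes, 4 were above, none below, and the median was 0.04. Rag1 and Rag2, which cut the gene segments that are joined, and Dntt, which adds bases at the joints, were not kept for want of signal. Among germinal centre genes, the B cell attractant Cxcl13 was at -2.58 and -2.09 in the controls and 0.61 and 1.20 in the compost rats, 3.24 ± 0.30 higher (limma, adjusted p = 0.294), while Rgs13 was lower in both compost rats (-0.97 ± 0.38). That list had 4 of 8 above, 1 below and a median of 0.50.

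Of 11 genes for signals that guide isotype choice and plasma cell survival, 6 were above in both compost rats, none was below and the median was 0.37. Il10, a cytokine that favours antibody secretion, was at -4.61 and -4.55 in the controls and -2.89 and -3.40 in the compost rats, 1.44 ± 0.24 higher (limma, adjusted p = 0.908). Cd40, the receptor through which T cells help B cells, differed by 0.87 ± 0.18, Ifng by 0.91 ± 0.24 and Tgfb1, a switch factor for IgA, by 0.77 ± 0.38. With normexp the differences were 0.61 for Il10, 0.82 for Cd40, 0.36 for Ifng and 0.34 for Tgfb1, and the list median was 0.16. Transport genes showed no such difference: Pigr, the epithelial carrier of IgA, was lower in both compost rats (-0.32 ± 0.18) and the 4 transport genes had a median of -0.10. Vpreb3, the only surrogate light chain gene kept, differed by 0.70 ± 0.28.

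Markers of other cells in the tissue are given beside these values; none passed the adjusted threshold in limma, and 12.3% of all probes were above and 15.6% below without overlap. The 9 macrophage genes kept had a median of 0.60 with 3 above, and their list mean was 1.31 in compost rat 1 against 0.37, 0.26 and 0.39 on the other arrays. The 9 T cell genes had a median of 0.03 with 1 above, the adhesion receptor Cd2 (1.60 ± 0.23, limma, adjusted p = 0.751). Cd2 was detected in only 1 of the controls, and with normexp it differed by 0.48. Of the 10 enterocyte genes 5 were below and none above, with a median of -0.26, among them Anpep (-0.75 ± 0.21), Alpi and Lct, which were below detection in both compost rats. As bounds on the processed signal Alpi was at least 5.35-fold and Lct at least 4.01-fold lower, while with normexp their differences were -1.34 and -0.78 log2 units. Smooth muscle genes had a median of 0.15 over 4 and endothelial and blood genes 0.24 over 6. The part of these markers in the immunoglobulin differences was not tested.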

How the data were processed

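Per the file headers, each deposited scanner file holds spot intensity values of 1 single-colour (Cy3) array; the submitters' processing notes name Agilent Feature Extraction 9.1.3.1. The authors' deposited value table holds the same processed intensity values, within 0.497% of the scanner files on every array, and was used as an alternative only. Its column medians were 80.2, 79.4, 102 and 73.9, so it is on a linear, uncentred scale.

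Log2 of the processed signal minus each array's 75th percentile was computed here, with outlier spots left out, spots of a probe averaged and probes kept when well above background on at least 2 of 4 arrays. The comparison used limma 3.58.1 in R 4.3.3 (lmFit, eBayes, two-sided, Benjamini-Hochberg over all kept probes, threshold 0.05), and the code was tested on simulated data. Named members are, per class, up to 3 with the highest mean, up to 3 with the largest difference and every constant region member; from each of 12 lists, up to 4 genes with the smallest unadjusted p, 1 probe a gene. Further members were named after their values were seen: the second IR162 probe, the 56R-3 kappa chain and the segment ENSRNOT00000029570. So were the genes Hspa5, Sdc1, Slamf7, Ell2, Fkbp11, Sec11c, Pdia4, Hsp90b1 and Edem1. Members and lists were chosen with earlier results of these data known.

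Gene names are those of the array's annotation, updated through RefSeq (GRCr8) where a symbol, synonym or accession matched; 3 of the 72 members matched. Alternatives were normexp (offset 50), quantile and median scaling, no filter, detection on all 4 arrays, the authors' table, a replicate block, a variance trend, and each array left out. Some listed genes are not reported here.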

Additional observations from a re-analysis of the deposited data

How the results depend on the processing

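The 12 list medians, the member counts and the classes kept their direction under quantile and median scaling and with the authors' table. The number of probes called was 1 with normexp and 0 to 2 with 1 array left out; the 2 calls, without control rat 2, were not members. Members above numbered 39 to 55 with 1 array left out (55 without control rat 2, 53 without compost rat 2); separation is easier with a lone array, and the share of all probes above then rose from 12.3% to between 21.9% and 36.3%. Members below numbered 1 with quantile scaling, 1 with median scaling, 4 of 103 without the filter, 1 of 49 with detection on all 4 arrays and 5 to 11 with 1 array left out, when 29.3% to 43.1% of all probes were below. The median over members was 0.74 with normexp and 0.80 to 1.72 with 1 array left out. Without the 7 similarity-named members it was 1.34 and with 1 probe per source 1.25; these alternatives were chosen after seeing the data. The replicate block gave 0 calls and a median of 1.24, and the numbers did not pair the rats (correlation of deviations -0.036). With 1 array left out, the lone rat of its group is assumed to vary like the others.

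The sign of 26 of the 72 members depended on the array left out, while 43 stayed higher and 3 stayed lower without each array in turn. Of all probes, 17.8% stayed higher and 22.2% stayed lower. Of values given above, these turned sign: lambda class -0.14 to 1.62; lambda constant probes -0.14 to 1.62 and -0.17 to 1.39; L17078 -0.28 to 1.25; L07402 -1.77 to 1.89; XM_234830 -0.22 to 4.26; L07410 -1.39 to 5.22; LOC297260 -0.60 to 1.45; M12981 -0.65 to 0.87; the second M15402 probe -0.88 to 0.97; U39609 (anti-NGF30) -0.27 to 1.04. Members named by similarity did so as well: TC609188 -0.34 to 0.13, TC606950 -0.21 to 0.16, TC581743 -0.29 to 0.06 and TC609599 -0.02 to 0.72. List medians ran from -0.24 to 0.04 for transport, -0.45 to 0.49 for T cells, -0.05 to 0.34 for smooth muscle and -0.34 to 0.89 for endothelium and blood. TC606950 was 0.01 with median scaling and the IgM class -0.18 without the filter, where 1 more probe enters. The cause was not tested. Signal over background limits the members seen on 2 or 3 arrays.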
